A study of Mus musculus with 6 samples.

Results

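The intermediate filament genes described here are Krt7, Krt8, Krt18, Krt19, Vim, Nes, Des, Nefl, Nefm and Ina. They were found as the rows of the RNA-seq table whose name is one of these 10 symbols. Each symbol had 1 row, among 23235 rows with 22969 distinct names. RNA came from E14Tg2a, a mouse embryonic stem cell line, at passages 37 to 40, grown in medium with fetal bovine serum. Pluripotent ESCs kept with leukemia inhibitory factor (LIF), which holds them in the undifferentiated state, gave 3 samples. The other 3 samples, which the authors call neuronal cells (NCs), were of the same line. They came from monolayers given 1 μM retinoic acid (RA) for 48 h after LIF was withdrawn. Both conditions are cultures of a single line without sorting, so fewer cells of a type and less RNA per cell cannot be told apart. Levels under LIF are those of the ESCs and levels under RA those of the NCs. The comparison asked how the mRNA levels of filament genes differ between the pluripotent state and the state after RA without LIF. No sample lacked both LIF and RA, so the part of RA and that of LIF withdrawal cannot be told apart.

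Intermediate filaments are the cytoskeletal polymers whose subunits differ most between cell types. Simple epithelia build them from keratins, always by pairing an acidic type I keratin with a basic type II keratin. Mesenchymal and many progenitor cells use vimentin, muscle uses desmin, neural progenitors add nestin, and neurons change to neurofilament proteins and internexin. Lamins, the nuclear members of the family, line the nuclear envelope of nearly all cells.

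Levels are in FPKM, which divides the fragments of a gene by the length of its transcript and by the library's mapped fragments, so that genes can be compared with each other. The table holds 1 authors' value per gene and condition, pooled by Cuffdiff over the 3 replicates. No replicate error or SD can be computed from these values and no test was run on them, so every difference here is a description of the pooled values. The authors' own test columns were not used. A gene was called higher or lower when its FPKM was at least 2-fold higher or lower in NCs and reached at least 1 FPKM in at least 1 condition. A gene that reached 1 FPKM in 1 condition alone had to be higher there, so the counts below also say how many calls come from genes with at least 1 FPKM in both conditions. The depth of each sample cannot be read from pooled values. Low FPKM values of genes annotated with only 1 transcript fell most often on steps of about 0.0138 FPKM (ESCs) and 0.00724 FPKM (NCs) per kilobase (89 of 603 and 130 of 698 values), taken as the approximate worth of 1 fragment, with an assumed fragment length of 200 bases. At the larger step the members' values correspond to between about 67 fragments (Nefm in NCs) and 27748 fragments (Vim in NCs), all above a floor of 3 fragments, which covers counting error only.

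The levels of marker genes were read in both conditions. These lists and the members were chosen with earlier results of these data known, so their counts are no independent check. Of all 11715 genes with at least 1 FPKM in both conditions, 7.45% were called higher and 7.89% lower. Of 10 pluripotency markers, 9 were called lower in NCs and 0 higher, 8 of the 9 with at least 1 FPKM in both conditions, and their summed level went from 2003 FPKM in ESCs to 182 FPKM in NCs, led by Pou5f1, Zfp42 and Sox2. Of 5 neural progenitor markers with at least 1 FPKM in both conditions, Pax6, Msi1, Sox3 and Sox1 were called higher, with 65.2, 58.0, 21.9 and 21.8 FPKM in NCs, while Dll1 had 5.33 FPKM with LIF and 4.31 FPKM with RA. Hes5 was called higher and Fabp7 lower, each through 1 condition alone. Of 4 neuron markers with at least 1 FPKM in both conditions, 0 were called higher and 2 lower. These were Stmn2 (142 to 11.8 FPKM) and Tubb3 (33.4 to 7.54 FPKM), while Gap43 went from 12.3 to 7.57 FPKM. Elavl3 and Syp were called lower through their ESC values alone. Dcx, a gene of migrating young neurons, did not reach 1 FPKM and had 0.0140 FPKM with LIF and 0.334 FPKM with RA. The neuron list summed to 203 FPKM with LIF and 33.1 FPKM with RA, and the neural progenitor list to 39.7 and 178 FPKM. The name NCs is thus kept as the authors' label, since 0 neuron markers were called higher.

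Among the 10 filament genes, Vim, Krt18 and Krt8 were higher in NCs by 2.50-fold, 2.25-fold and 2.11-fold, and Nefm and Nefl were lower by 5.26-fold and 3.24-fold. Krt7, Nes, Des, Krt19 and Ina were within the 2-fold limits. So 3 of 10 members were called higher, beside 12.5% of the 13290 genes that reached 1 FPKM, and 2 of 10 were called lower, beside 10.6%. All 10 members reached 1 FPKM, Nefm through its ESC value alone, so its direction was fixed by the filter. Of the 9 members with at least 1 FPKM in both conditions, 3 were called higher and 1 lower, beside 7.45% and 7.89% of 11715 genes. The median log2 ratio of NC to ESC was 0.12 over the 10 members and -0.03 over the 13290 genes. When both columns were rescaled to the same total, the share of higher calls among all called genes went from 54.0% to 70.6%, and the calls of the 10 members stayed as they were. In ESCs the order of levels was Vim, Krt18, Krt19, Krt8, Des, Ina, Nes, Nefl, Krt7 and Nefm. In NCs it was Vim, Krt18, Krt8, Krt19, Nes, Des, Ina, Krt7, Nefl and Nefm. With no spread between replicates, it cannot be said which neighbours in these orders differ.

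**Figure D1:**
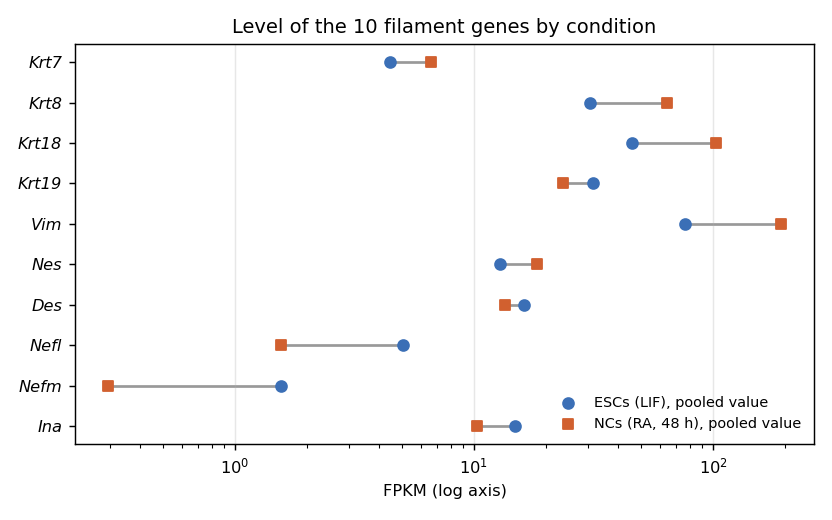
FPKM of each of the 10 filament genes on a log axis, with circles for ESCs (LIF) and squares for NCs (RA, 48 h), each point being the authors' pooled value of 3 samples and so without an error bar. The longest lines to the right are those of Vim, Krt18 and Krt8, and the longest to the left those of Nefm (1.56 to 0.296 FPKM) and Nefl (5.04 to 1.56 FPKM).

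Krt8 and Krt18 encode the type II and type I keratins that polymerize together in simple epithelia and in the first epithelium of the embryo. Krt8 had 30.5 FPKM with LIF and 64.2 FPKM with RA, a log2 ratio of 1.07. Krt18 had 45.7 FPKM with LIF and 103 FPKM with RA, a log2 ratio of 1.17. The level of Krt18 was 1.5 times that of Krt8 in ESCs and 1.61 times in NCs, a smaller difference than that of either level. By level, Krt18 went from rank 2203 to rank 796 of the 13290 genes and Krt8 from rank 3198 to rank 1346. The genes are neighbours on chromosome 15 of GRCm38, known at UCSC as mm10. Krt8 (101996711 to 102004342, minus strand, 9 exons) and Krt18 (102028216 to 102032026, plus strand, 7 exons) are transcribed away from each other, with 23873 bases and 0 annotated protein-coding genes between them. Of the 50-base words of the Krt8 transcript, 26.9% also occur in the annotated processed pseudogene Krt8-ps, so part of its fragments could have been assigned to either copy. The share of words found in any other gene was 29.7% for Krt8 and 0.720% for Krt18.

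Krt7 and Krt19 are the other keratins of simple and ductal epithelia among the members. Krt7, a type II keratin (chromosome 15, 101412403 to 101427806), had 4.47 FPKM with LIF and 6.59 FPKM with RA, 1.48-fold higher. Krt19, a type I keratin that lacks most of the tail domain (chromosome 11, 100140810 to 100145926), had 31.5 FPKM with LIF and 23.6 FPKM with RA, 1.34-fold lower. The direction thus differed among the 4 keratins. In ESCs the level of Krt18 was 1.45 times that of Krt19, and in NCs 4.37 times. The type I members Krt18 and Krt19 summed to 2.21 times the type II members Krt7 and Krt8 in ESCs and to 1.79 times in NCs. Over all keratins in the table this ratio of type I to type II was 2.60 in ESCs and 1.85 in NCs.

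The 300-base windows around the starts of Krt7, Krt8, Krt18 and Vim are shown because they let the start regions of the called keratin pair be read beside those of a keratin within the limits and of Vim, the member with the highest level. Each window runs from 250 bases before to 50 bases after the start, 5′ to 3′ on the gene's strand, from RefSeq on GRCm38.p6. In GENCODE M21 the spans of Krt7 and Vim begin upstream of these windows, at 101411043 and 13573927. The windows thus hold for the RefSeq start only. Capitals mark the letters searched on both strands: AGGTCA for the core of nuclear receptor elements, GGGCGG for the Sp1 family, TATAAA for the TATA-binding protein, CCAAT for the factor NF-Y and TGACTCA for AP-1. The positions are chr15:101412153-101412452 (plus strand) for Krt7, chr15:102004293-102004592 (minus strand) for Krt8, chr15:102027966-102028265 (plus strand) for Krt18 and chr2:13574061-13574360 (plus strand) for Vim.
Krt7: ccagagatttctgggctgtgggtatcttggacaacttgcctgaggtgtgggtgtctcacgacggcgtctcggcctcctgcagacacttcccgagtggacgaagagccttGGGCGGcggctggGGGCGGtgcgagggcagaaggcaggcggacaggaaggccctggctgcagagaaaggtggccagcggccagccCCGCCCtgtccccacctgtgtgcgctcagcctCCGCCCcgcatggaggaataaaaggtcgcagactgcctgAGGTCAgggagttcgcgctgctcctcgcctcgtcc
Krt8: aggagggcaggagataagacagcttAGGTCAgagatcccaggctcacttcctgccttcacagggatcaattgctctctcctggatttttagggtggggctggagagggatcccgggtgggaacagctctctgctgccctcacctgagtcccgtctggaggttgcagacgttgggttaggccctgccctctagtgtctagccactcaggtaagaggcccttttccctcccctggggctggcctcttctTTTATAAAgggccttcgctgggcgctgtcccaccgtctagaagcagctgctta
Krt18: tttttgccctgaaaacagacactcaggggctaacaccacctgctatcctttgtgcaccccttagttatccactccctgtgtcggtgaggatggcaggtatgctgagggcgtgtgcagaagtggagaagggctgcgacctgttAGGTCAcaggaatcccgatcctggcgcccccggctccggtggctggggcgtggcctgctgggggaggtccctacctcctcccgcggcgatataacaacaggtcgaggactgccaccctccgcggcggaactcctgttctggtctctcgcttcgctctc
Vim: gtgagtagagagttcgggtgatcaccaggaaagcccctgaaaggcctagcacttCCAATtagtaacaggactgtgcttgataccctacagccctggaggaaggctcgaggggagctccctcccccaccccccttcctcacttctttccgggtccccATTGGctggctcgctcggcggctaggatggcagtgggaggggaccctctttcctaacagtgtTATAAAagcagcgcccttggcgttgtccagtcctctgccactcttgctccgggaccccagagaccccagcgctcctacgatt

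AGGTCA or its reverse complement occurs once in each of the windows of Krt7 (from base 266), Krt8 (from base 26) and Krt18 (from base 143), counted from 1 at the 5′ end. It is in all 3 keratin windows, in 0 of the 4 windows of Vim, Nes, Des and Ina, and in 16.3% of all 32851 RefSeq windows of this length. TATAAA was found in Vim from base 219 and in Krt8 near the start, where overlapping matches on both strands begin at bases 248 and 250, and 13.6% of all windows hold it. CCAAT or its reverse complement occurs in Vim from bases 55 and 157, and 37.4% of all windows hold it. GGGCGG was found in Krt7, Nes, Des and Ina but not in Krt8, Krt18 or Vim, and 35.7% of all windows hold it. TGACTCA (5.2% of all windows), TGACGTCA, the cAMP response element (1.79%), CACGTG, the E-box (7.15%) and a direct repeat of AGGTCA spaced by 5 bases (0.00913%) were in 0 of the 7 windows. These matches are letters in a window and say nothing of whether a factor binds there. Windows of Krt19, Nefl and Nefm were not used here. The AGGTCA counts thus leave out a member keratin and both members called lower.

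Vim encodes vimentin, the type III filament of mesenchymal cells and of most dividing cells in culture. It lies on chromosome 2 (13574311 to 13582826, plus strand, 9 exons), and 0 of its transcript's 50-base words occur in another gene. Vim had 76.7 FPKM with LIF and 192 FPKM with RA, a log2 ratio of 1.32, which was above the ratio of 90.9% of the 13290 genes. It went from rank 1292 to rank 413 by level. The difference of 115 FPKM between the conditions was the largest of the 10 members. Vim made up 32.0% of the summed FPKM of the 10 members in ESCs and 44.3% in NCs. The keratin pair Krt8 and Krt18 made up 31.9% and 38.6%. All 10 members together summed to 239 FPKM with LIF and 433 FPKM with RA.

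Des and Nes, which encode partners of vimentin, differed less. Nes (chromosome 3, 87971093 to 87980451) encodes nestin, a large filament protein of neural progenitors that polymerizes with vimentin. Its level was 12.9 FPKM with LIF and 18.3 FPKM with RA, 1.42-fold higher. The level of Vim was 5.96 times that of Nes in ESCs and 10.5 times in NCs. Des (chromosome 1, 75360292 to 75368579) encodes desmin, the type III filament of muscle, and had 16.1 FPKM with LIF and 13.5 FPKM with RA, 1.20-fold lower. The direction of Des turned when both columns were rescaled to the same total, with a log2 ratio of 0.032. Of 12 muscle markers, 4 reached 1 FPKM, all in both conditions, and 0 were called. Of all genes with such levels, 7.45% were called higher and 7.89% lower. Tagln, a smooth muscle gene that many cultured cells express, was the most abundant with 49.4 FPKM with LIF and 93.2 FPKM with RA, 1.89-fold higher. The list summed to 71.6 and 113 FPKM, and the higher sum in NCs came from Tagln. Acta2 had 12.2 and 10.3 FPKM and Acta1 4.37 and 4.76 FPKM, and Myod1 and Myog, which specify skeletal muscle, had at most 0.156 FPKM in either condition.

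Nefl and Nefm were the members called lower in NCs. Nefl encodes the light neurofilament protein, which forms the core of the axonal filament, and Nefm the medium protein that assembles on it. Nefl (chromosome 14, 68083863 to 68089095, plus strand) had 5.04 FPKM with LIF and 1.56 FPKM with RA, a log2 ratio of -1.70. Nefm (chromosome 14, 68119545 to 68125004, minus strand) had 1.56 FPKM with LIF and 0.296 FPKM with RA, a log2 ratio of -2.39. Adding 1 FPKM to every value brought Nefm to -0.98 on the log2 scale, within the 2-fold limit. Ina (chromosome 19, 47014681 to 47025327) encodes internexin, which appears in neurons before the neurofilaments, and had 14.9 FPKM with LIF and 10.3 FPKM with RA, 1.45-fold lower. Ina was the most abundant of these genes in both conditions, at 2.95 times the level of Nefl in ESCs and 6.6 times in NCs. Nefl, Nefm and Ina together made up 8.97% of the members' summed FPKM in ESCs and 2.79% in NCs. Beside them, the neuron markers Stmn2 and Tubb3 were called lower by 12.1-fold and 4.43-fold, and their part in the neurofilament result was not tested.

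Nefl and Nefm are neighbours, with 30449 bases and 0 annotated protein-coding genes between their spans. A longer Nefm transcript annotated in GENCODE M21 runs through Nefl on the opposite strand, and 31.8% of the 50-base words of Nefl occur in it. For Ina, 12.8% of the words occur on the opposite strand in the neighbouring gene Nt5c2, which had 9.09 FPKM with LIF and 12.2 FPKM with RA. Shorter overlaps on the opposite strand were found for Krt8 with Gm36026 (131 bases, 2.78% of the words) and for Des with Gm15179 (368 bases, 5.81%). Whether the counting used strand is not given in the sources used here, so fragments of these overlapping stretches cannot be told apart.

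**Figure D2:**
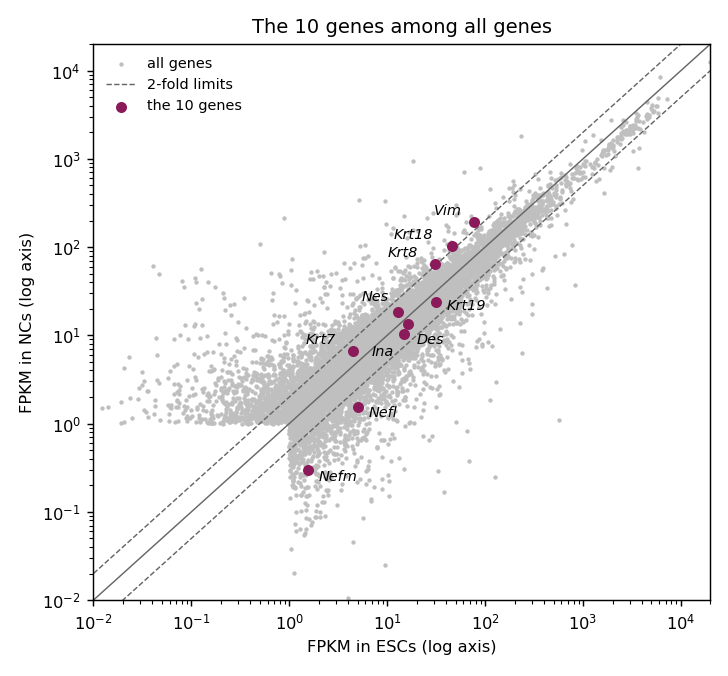
FPKM in ESCs against FPKM in NCs on log axes for genes with at least 1 FPKM in at least 1 condition (grey) and for the 10 filament genes (purple), with dashed lines at the 2-fold limits and genes under the axis minimum not drawn. Vim, Krt18 and Krt8 lie above the upper limit, Nefl and Nefm under the lower limit, and the other members between them.

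Of 70 listed intermediate filament genes, 65 were in the table and 21 reached 1 FPKM, the members included. In this family 4 genes were called higher and 5 lower, beside 12.5% and 10.6% of all genes. Of its 15 genes with at least 1 FPKM in both conditions, 3 were called higher and 1 lower, beside 7.45% and 7.89%, and these are the members Vim, Krt18, Krt8 and Nefl. Outside the members, Krt20, a keratin of gut and urinary epithelia, was called higher, at 0.207 FPKM with LIF and 2.07 FPKM with RA. Called lower were Krt17, a keratin of basal and injured epithelia (4.62 to 0.814 FPKM), Krt42 (7.83 to 0.543 FPKM) and Synm, which encodes synemin, a partner of desmin and vimentin (2.29 to 0.987 FPKM). Each of these genes reached 1 FPKM in the condition with its higher level alone, and a gene that passes the filter in this way has to differ, so these calls are given as values only. Prph, the gene of the type III protein peripherin of peripheral neurons, had 9.09 FPKM with LIF and 15.99 FPKM with RA, 1.76-fold higher. Sync had 0.710 and 1.36 FPKM, and Krt10 had 2.36 and 2.53 FPKM. Nefh, the gene of the heavy neurofilament protein, had 2.77 FPKM with LIF and 2.61 FPKM with RA, 1.06-fold lower, unlike Nefl and Nefm. The ratio of Nefh to Nefm was thus 1.78 in ESCs and 8.80 in NCs. Gfap, the gene of the astrocyte filament, stayed under 1 FPKM with 0.354 and 0.745 FPKM.

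Of the lamins, Lmna had 15.4 FPKM with LIF and 7.79 FPKM with RA, 1.98-fold lower and just inside the limit. Lmnb1 had 139 and 147 FPKM, and Lmnb2 had 29.8 and 25.3 FPKM. The 44 filament genes in the table that did not reach 1 FPKM, most of them keratins of skin and hair and the lens genes Bfsp1 and Bfsp2, had at most 0.745 FPKM. Of these, Krt32, Krt34, Krt39, Krt6a, Krt6b and Krt86 were listed at 0 in both conditions. The members accounted for 87.6% of the summed FPKM of the cytoplasmic filament genes in ESCs and 93.2% in NCs.

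**Figure D3:**
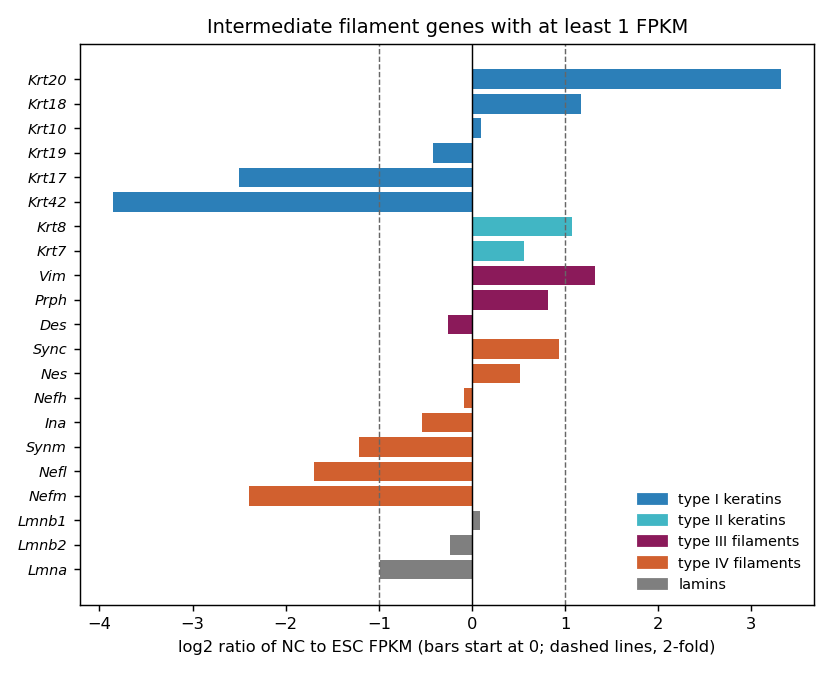
Log2 ratio of NC to ESC FPKM for the 21 intermediate filament genes that reached 1 FPKM, coloured by filament type, with bars from 0 and dashed lines at the 2-fold limits. Type I keratins run from Krt42 (-3.85) to Krt20 (3.32), and the neurofilament genes Nefl and Nefm have the lowest ratios of type IV.

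Keratin filaments are anchored to the membrane at desmosomes, and plakins link filaments to these junctions and to other parts of the cytoskeleton. The 8 plakin and linker genes had at least 1 FPKM in both conditions. Of these, 1 was called higher and 0 lower, beside 7.45% and 7.89% of all genes with such levels. Dsp, the gene of desmoplakin, which ties keratins to the desmosome, was 2.58-fold higher, at 5.92 FPKM with LIF and 15.3 FPKM with RA. Dst and Macf1, the linker genes with the highest levels in ESCs, had 20.4 and 18.5 FPKM in ESCs and 12.2 and 12.5 FPKM in NCs. Of 6 desmosome genes that reached 1 FPKM, all in both conditions, 1 was called higher and 1 lower, beside the same shares. Single calls in lists this small are given as values only. Dsc2, a desmosomal cadherin gene, was 3.80-fold higher (1.65 to 6.28 FPKM). Jup, the gene of plakoglobin, was 3.71-fold lower (37.4 to 10.1 FPKM). Pkp4 and Pkp2 were within the limits, with 28.2 and 26.1 FPKM in ESCs and 25.6 and 19.3 FPKM in NCs. The median log2 ratio was -0.10 for the linkers and -0.49 for the desmosome genes.

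Markers of other cell types that use these filaments were read beside the members. Of all genes with at least 1 FPKM in both conditions, 7.45% were called higher and 7.89% lower. Of 6 extraembryonic endoderm markers with at least 1 FPKM in both conditions, 3 were called higher (Col4a1, Dab2 and Gata6) and 0 lower. Another 4 (Foxa2, Sox17, Pdgfra and Sox7) were called higher through their NC values alone and Hnf4a lower through its ESC value alone, and the list summed to 201 FPKM with LIF and 297 FPKM with RA. Sparc (142 and 181 FPKM), Col4a1 (23.5 and 51.8 FPKM) and Lama1 (16.5 and 21.1 FPKM) had the highest levels, Sparc and Lama1 within the limits. Afp and Ttr, which mark visceral endoderm, stayed under 1 FPKM. Of the trophoblast markers, 1 had at least 1 FPKM in both conditions, Tfap2c (34.0 and 4.59 FPKM), and it was called lower. Through 1 condition alone, Gata3 and Plac1 were called higher and Ascl2 lower. The list summed to 39.2 and 12.1 FPKM, and the lower sum in NCs came from Tfap2c, which made up most of the sum in ESCs. Prl3d1 and Tpbpa were listed at 0 in both conditions. Of 4 fibroblast markers with at least 1 FPKM in both conditions, Col1a2 and Col1a1 were called higher and Thy1 lower, and Col3a1, Dcn and Fbn1 were called higher through their NC values alone. This list summed to 22.4 FPKM with LIF and 50.6 FPKM with RA, led in NCs by Col1a2 (23.3 FPKM) and Col1a1 (13.03 FPKM), while Thy1 went from 9.64 to 1.80 FPKM and Lum was listed at 0 in ESCs. The part of these cell types in the higher levels of Krt8, Krt18 and Vim was not tested. The glial list summed to 20.2 and 19.3 FPKM, with 0 of 4 genes called higher and 1, Aldh1l1 (6.25 and 1.31 FPKM), called lower, while Slc1a3 had 8.20 and 10.2 FPKM and Mbp 3.18 and 4.78 FPKM.

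**Figure D4:**
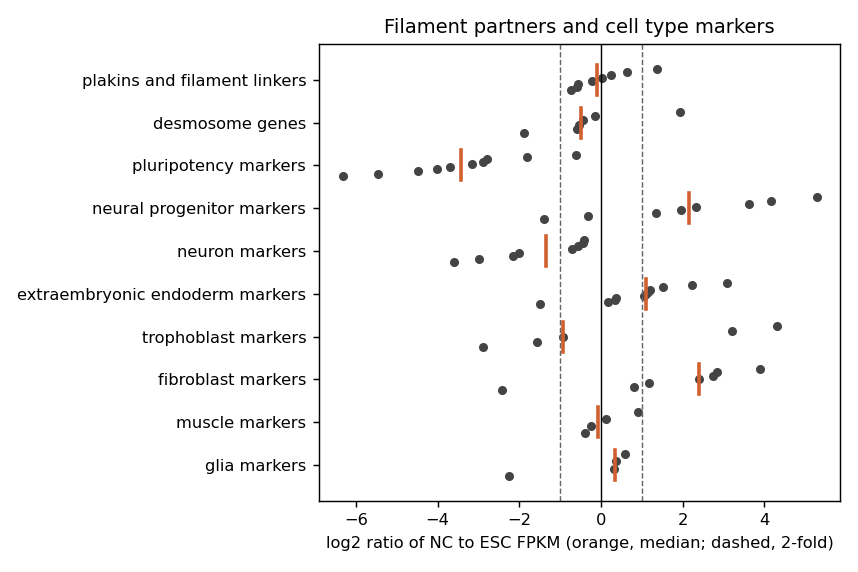
Log2 ratio of NC to ESC FPKM for each gene that reached 1 FPKM in at least 1 condition in the lists of filament partners and cell type markers, with each point a gene, the median in orange and dashed lines at the 2-fold limits. The median is -3.43 for pluripotency markers, 2.14 for neural progenitor markers and -1.35 for neuron markers.

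**Figure D5:**
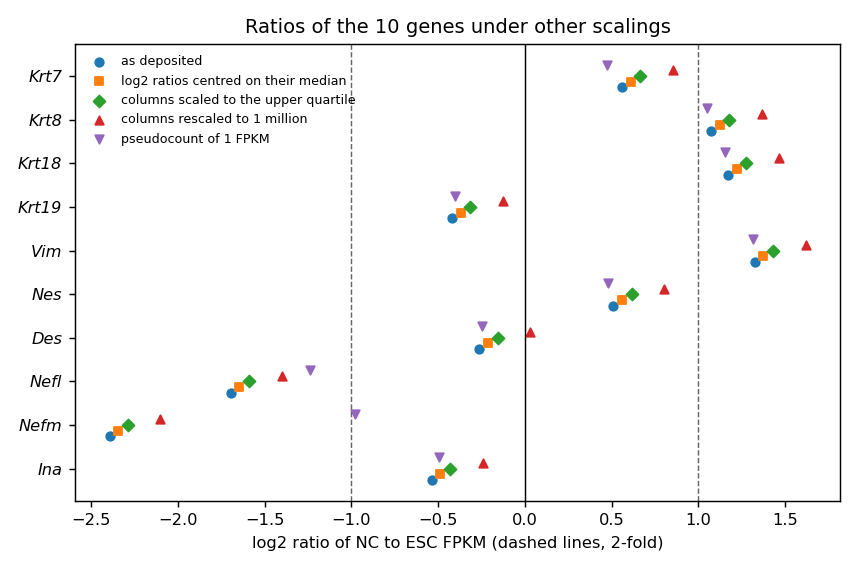
Log2 ratio of NC to ESC FPKM of the 10 filament genes with the values as deposited and under 4 other scalings, with dashed lines at the 2-fold limits. Vim, Krt18 and Krt8 stay above the upper limit under each of them, Nefm is within the limit with a pseudocount of 1 FPKM (-0.98), and Des lies just above 0 (0.032) when the columns are rescaled to the same total.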

How the data were processed

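RNA-seq was carried out on 3 ESC and 3 NC samples, grouped by their titles. Per the labels and the methods, the authors aligned reads of TruSeq libraries to mm10 with TopHat2 (version 2.0.8, running Bowtie2 at version 2.1.0), assembled transcripts with Cufflinks 2.0.2, merged them with Cuffmerge and ran Cuffdiff. The authors deposited 1 table with 1 FPKM value per gene and condition, pooled over replicates. The heading of the NC column reads FPK and was taken as FPKM, the unit of the methods. The annotation release and the Cuffdiff normalization are not given in the sources used here. The remaining columns hold the authors' own comparison (log2 ratio of the conditions, statistic, p and q) and were not used.

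The ratio of NC to ESC FPKM was computed without a pseudocount. A gene was called at a fold change of at least 2 with at least 1 FPKM in at least 1 condition. For the 160 names with several rows, the row with the highest mean was used. No test was run, because pooled values hold no spread between replicates, and the p-value limit of the methods was left out. The named genes were the members, the other filament genes that reached 1 FPKM, the called and the most abundant linker and desmosome genes, and the 3 highest genes of each marker list and those at 0. The other named genes (Krt8-ps, Nt5c2, Gm36026, Gm15179, Gfap, Bfsp1, Bfsp2, Pkp2 and the remaining markers) were named after their values were seen. The members and lists were chosen with earlier results of these data known. The calling step was tested on simulated data with planted changes well beyond the 2-fold limit. This checks the code and not calls near that limit. Positions and start windows are from RefSeq on GRCm38.p6, and strands, exons and 50-base words from GENCODE M21 on GRCm38. Protein sequences were not used here. The values of 1 marker gene are not reported here. Python 3.11.15, numpy 2.4.6, pandas 2.3.3 and matplotlib 3.10.9 were used.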

Additional observations from a re-analysis of the deposited data

How the results depend on the processing

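The log2 ratios of the members ran over the settings from 1.31 to 1.62 for Vim, from 1.15 to 1.47 for Krt18, from 1.05 to 1.37 for Krt8, from -1.70 to -1.24 for Nefl and from -2.39 to -0.98 for Nefm. Rescaling both columns to the same total raised the median log2 ratio of the genes with at least 1 FPKM in both conditions by 0.29 and scaling to the upper quartile by 0.10. Under the former the log2 ratio of Des was 0.032, the reversal of a direction among the 10 members. With a fold limit of 4, 0 members were higher and 1 lower (Nefm), 1 filament gene was higher and 3 lower, and of all genes 678 were higher and 488 lower. With a limit of 1.5, 2740 of all genes were higher and 2572 lower. With a pseudocount of 1 FPKM, 1 member and 3 filament genes were lower and 1073 of all genes higher. With at least 1 FPKM in both conditions, 1 member and 1 filament gene were lower, and 873 of all genes were higher and 924 lower. Without a filter, 16 filament genes were higher and 13 lower, and 2944 and 2401 of all genes. The other counts stayed within 1.5 times of the main count, and 93 of 100 single-gene results kept direction and call. Part of this was fixed in advance. Each member had 1 row and passed the main filter, so summing rows or dropping the filter could not change it. The other filter and the fold limits left every ratio as it was, so only a call could change there. No paired analysis was possible because the table holds 1 pooled value per condition, and leaving out replicates was not run for the same reason. Depth per sample is unknown, so the values near 1 FPKM, those of Nefm above all, are the least certain.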
